A study of Mus musculus with 56 samples.

Results

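Serpina3n and 9 other genes of the acute-phase response (Lcn2, Lrg1, Hp, C3, Cfb, Saa3, Socs3, Stat3 and Cebpd) were followed in thymic epithelial cells (TECs) of mice through late pregnancy and the month after birth. The 10 genes were taken from 50600 genes by Ensembl identifier. They were chosen by measured values: Serpina3n was selected on its fall in FPKM between D-2, in late gestation, and D6 after birth in cortical TECs (cTECs), and genes of the STAT3 type were listed with it to ask which of them went the same way. The study sorted cTECs (EpCAM+ CD45- UEA1-) and medullary TECs (mTECs, EpCAM+ CD45- UEA1+) from B6.SJL females. Pregnant females had been mated with BALB/cJ males, and all postpartum groups shared the removal of the pups at birth. Non-pregnant females (NPC) served as controls, and the labels give no ages. Poly-A RNA was sequenced in 56 samples, 28 per cell type, each from 1 mouse: 3 of NPC, D-2, D0 (the day of birth), D3, D6 and D12, and 1 of each of the 10 other days up to D28. The samples held from 4561208 to 108547384 expected counts each (median 17972566), and the shallowest library was mTEC D6 replicate 3.

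The acute-phase response is the change in plasma and tissue proteins that follows injury, infection or hormonal stress. Cytokines of the interleukin-6 family bind receptors that contain gp130 (Il6st), Janus kinases phosphorylate STAT3, and STAT3 acts with C/EBP factors and NF-kB at the promoters of genes for protease inhibitors, iron-binding proteins, serum amyloids and complement. Socs3, itself a STAT3 target, blocks the receptor, and glucocorticoids strengthen the induction of many of these genes. In the thymus, cTECs select the T cell repertoire and make up the niche of early thymocytes, whereas mTECs also transcribe a wide range of genes otherwise restricted to other tissues, among them liver genes.

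Levels are given as FPKM, in which fragments are scaled by transcript length and by library depth, so that levels can be compared between genes. Changes are log2 fold changes from limma-voom on expected counts, with their standard errors (SE). A gene was called changed where its level differed 2-fold or more with an adjusted p (Benjamini-Hochberg) no higher than 0.01, the thresholds of the study, with adjustment over every gene whose mean was at least 0.5 FPKM in the cell type. Of the 10 genes, 9 passed this filter in each cell type and Lrg1 passed it in neither. Over NPC, D0, D3 and D12 together, the samples carried the markers of their sort. All 10 cTEC markers listed, among them Psmb11 and Prss16, were called higher in cTECs. Of 10 mTEC markers, 7, among them Aire and Fezf2, were called lower and the rest were not. D-2 and D6 took no part in this comparison. The summed level of the cTEC markers in mTECs on D6, given below, lay above that in cTECs at D-2. In bulk samples, fewer cells of a type and less RNA per cell cannot be told apart.

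Serpina3n encodes a secreted inhibitor of serine proteases and belongs to a cluster of Serpina3 genes on chromosome 12 (GRCm38, 104406729 to 104414329, plus strand). In cTECs it reached 178, 175 and 239 FPKM in the 3 samples of D-2, against 40.7, 11.2 and 24.4 FPKM in NPC. It stood at 52.6, 107 and 50.1 FPKM on D0, at 24.9, 23.8 and 46.9 FPKM on D3 and at 9.59, 6.51 and 7.24 FPKM on D6. All samples of D-2 thus lay above those of every other replicated time point, and all samples of D6 lay below them. By D12 the level was 28, 22.5 and 28.6 FPKM, within the range of NPC.

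The replicated time points in cTECs ordered as follows by mean level. D-2 stood at 197.2 ± 36.2 FPKM (SD, n = 3), above D0 at 70.1 ± 32.4 FPKM. D3 (31.9 ± 13.1 FPKM), D12 (26.4 ± 3.35 FPKM) and NPC (25.4 ± 14.8 FPKM) overlapped one another. D6 was lowest at 7.78 ± 1.61 FPKM. The samples of D0 and D3 came close to each other, with 50.1 FPKM as the lowest of D0 and 46.9 FPKM as the highest of D3. Among days with a single sample, D24 stood apart at 77.3 FPKM, whereas D16, D20 and D28 gave 18.9, 17.4 and 22.7 FPKM.

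The contrast that chose the gene is given as a description. Between D-2 and D6 in cTECs, Serpina3n fell by 4.68 on the log2 scale (SE 0.472). By the difference in mean log2(FPKM + 0.5), -4.58, it ranked 3 among 9988 genes with a mean of at least 5 FPKM at D-2. The genes ranked ahead of it were Hist1h2ao, at -6.68, and Gm14287, at -5.39; the next after it were Gm25994, at -4.49, and Saa3, at -4.31. From NPC to D-2 the log2 fold change of Serpina3n in cTECs was 3.34 (SE 0.412), which shares the D-2 samples with that contrast.

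**Figure D1:**
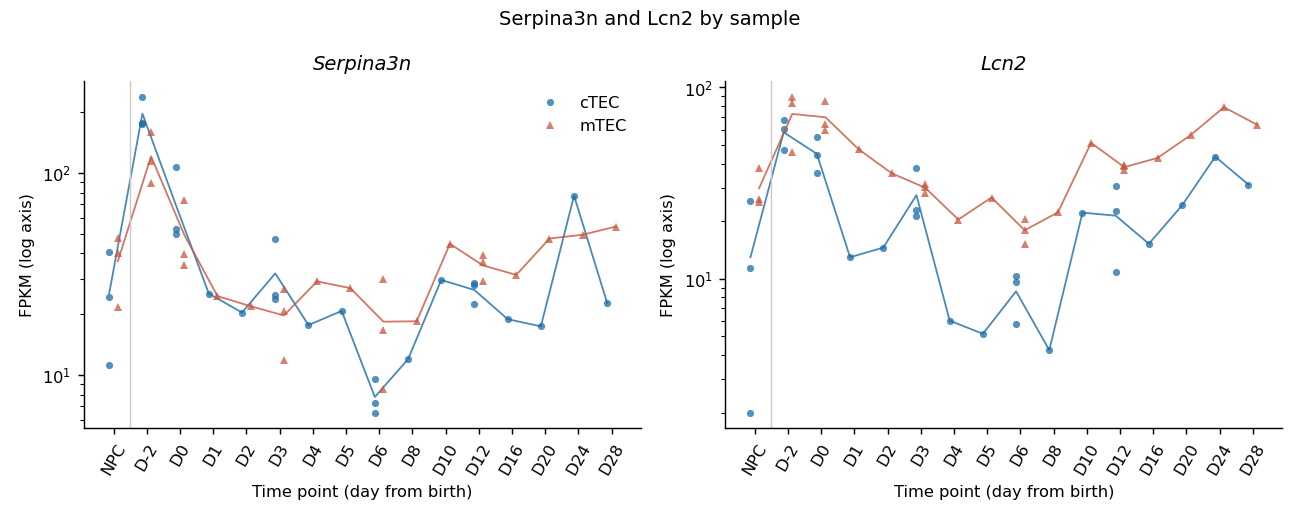
FPKM of Serpina3n (left) and Lcn2 (right) on a log axis by time point, with 1 point per sample, circles for cTECs and triangles for mTECs, and lines through the mean of each time point. Serpina3n is highest at D-2 in both cell types and in cTECs lowest at D6, at 6.51 to 9.59 FPKM, whereas Lcn2 in mTECs is again at 78.9 FPKM on D24.

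In mTECs, whose values took no part in the choice of the gene although some may come from the same mice, Serpina3n stood at 47.9, 40.3 and 21.7 FPKM in NPC and at 114, 89.6 and 160 FPKM at D-2. The groups did not overlap, and the log2 fold change of 1.75 (SE 0.311) was called (limma-voom, adjusted p = 0.00526), 1 of 2 of the 9 acute-phase genes tested in which all samples of D-2 lay above those of NPC. This comparison called 0.519% of 17743 genes higher, and 6.28% were higher without overlap. The call was lost when any of 4 samples was left out: D-2 replicate 1 (adjusted p = 0.0192), D-2 replicate 3 (adjusted p = 0.0542), NPC replicate 1 (adjusted p = 0.0113) or NPC replicate 2 (adjusted p = 0.0394), with a log2 fold change of 1.45 to 1.97 in these fits. It was also lost with edgeR (adjusted p = 0.0667) and in a fit of these 6 samples alone (adjusted p = 0.0730), and over all alternatives the adjusted p ranged from 0.00027 to 0.153.

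On D6 in mTECs the level was 29.8, 8.54 and 16.7 FPKM, below all samples of D-2 and overlapping NPC. The log2 fold change from D-2 was -2.96 (SE 0.497) and missed the threshold (limma-voom, adjusted p = 0.0143). No acute-phase gene was called here by limma-voom, beside 0.0113% of all genes. At an unadjusted p under 0.05 (limma-voom) there were 2 of 9 genes, beside 1339 of 17743 genes tested, and edgeR called 1 and DESeq2 called 2. Serpina3n passed under 4 of 9 alternatives, with an adjusted p from 8.15e-08 to 0.0425. The adjusted p was 0.0451 without D6 replicate 3, the shallowest library, and 0.16 without D6 replicate 2, which holds the lowest level, and the fit shares the D-2 samples with the comparison against NPC. Serpina3n, Lcn2 and Stat3 lay below D-2 without overlap in FPKM, 3 of 9, beside 12.9% of all genes.

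By D12, Serpina3n in mTECs was at 36.1, 29.1 and 39.4 FPKM, inside the range of NPC. The late days D16 to D28 gave 31.3, 47.4, 49.5 and 54.4 FPKM, all above the early median of 28 FPKM. The late against early difference of 0.655 (SE 0.265) on the log2 scale did not pass (limma-voom, adjusted p = 0.161). Between cTECs and mTECs over NPC, D0, D3 and D12, the log2 fold change of Serpina3n was -0.06 (SE 0.253, limma-voom, adjusted p = 0.88).

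The 250 bases upstream of the RefSeq start of Serpina3n (GRCm38.p6, chr12:104406458-104406707, plus strand) are shown because Serpina3n is the gene the list was built around and the window holds motifs of factors named above. Capitals mark matches to a C/EBP motif (TTNNGNAAT) and a steroid receptor motif (ACANNNTGT), both searched on both strands:
Serpina3n: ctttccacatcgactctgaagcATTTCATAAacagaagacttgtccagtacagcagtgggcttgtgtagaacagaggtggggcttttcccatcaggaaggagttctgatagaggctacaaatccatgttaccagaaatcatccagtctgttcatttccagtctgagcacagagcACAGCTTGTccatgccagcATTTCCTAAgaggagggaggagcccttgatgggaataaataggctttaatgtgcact
The C/EBP matches begin 228 and 57 bases before the start, and the steroid receptor match begins 76 bases before it. No STAT motif (TTCNNNGAA) was found in the 300-base window that RefSeq gives around the start. Of 32851 promoter windows of the same length, 11.5% held the C/EBP motif, 6.85% the steroid receptor motif and 8.3% the STAT motif. Promoters were matched for 7 of the 10 genes (not for Hp, Cfb and Cebpd). Among the 7, the STAT motif was found in 1 (Socs3, 154 bases before its start), the C/EBP motif in 3 (Serpina3n, C3 and Stat3) and the steroid receptor motif in 2 (Serpina3n and Lcn2). A looser NF-kB like motif (3 G, any 5 bases, 2 C), held by 50.8% of all windows, was found in 5. A match in this window is a description of its letters only.

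Other Serpina3 genes lie beside Serpina3n in the same cluster. Serpina3g stood at 87.5 ± 13.7 FPKM in cTECs of NPC, 124 ± 30.2 at D-2 and 57.4 ± 14.0 on D6 (SD, n = 3). In mTECs it stood at 236 ± 8.91 FPKM in NPC and 224 ± 50.2 at D-2, and its log2 fold change of 0.02 (SE 0.237) was not called (limma-voom, adjusted p = 0.972). Serpina3c, a low gene, was at 0.463 FPKM in cTECs of NPC and 4.24 FPKM at D-2, and Serpina3j at 1.79 and 5.21 FPKM. Of the 11 family members, 7 passed the filter, and in mTECs at D-2 only Serpina3n among them was called. Against mTECs, Serpina3g, Serpina3f and Serpina3j were called lower in cTECs. Reads of these near-identical genes can be split by the counting, so their separate levels are uncertain.

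Lcn2 encodes lipocalin-2, a secreted protein that binds bacterial iron carriers. In cTECs it stood at 11.4, 2.00 and 25.5 FPKM in NPC and at 67.2, 47.3 and 60.4 FPKM at D-2, all above NPC. It was at 54.8, 35.8 and 44.2 FPKM on D0, overlapping D-2, whereas the samples of Serpina3n on D0 lay below those of D-2. On D6 it was at 5.84, 10.4 and 9.59 FPKM, below all samples of D-2 and D0 and overlapping NPC. The fitted difference between D-2 and D6 was -2.79 (SE 0.609), which is again a value of the contrast behind the list.

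In mTECs, Lcn2 was at 25.3, 37.9 and 26.1 FPKM in NPC and at 83.0, 45.8 and 89.4 FPKM at D-2, again without overlap. The log2 fold change of 1.32 (SE 0.262) fell just outside the threshold (limma-voom, adjusted p = 0.0110), and over the alternatives the adjusted p ranged from 0.00123 to 0.170. Without D-2 replicate 2 the gene was called (adjusted p = 0.00539). On D6 it was at 20.6, 15.3 and 18.0 FPKM, below every sample of NPC and of D-2. The log2 fold change from D-2 was -2.12 (SE 0.488) and was not called (limma-voom, adjusted p = 0.0628), whereas 5 of 9 alternatives called it, edgeR (adjusted p = 0.00956) and DESeq2 (adjusted p = 7.16e-08) among them. Its adjusted p was 0.182 without D6 replicate 3, the shallowest library, and 0.473 without D6 replicate 2.

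On the days after D12, Lcn2 in mTECs was at 42.8, 56.4, 78.9 and 63.9 FPKM, all above the early median of 33.5 FPKM. The late against early difference was 0.726 (SE 0.221) on the log2 scale and did not pass (limma-voom, adjusted p = 0.0658). No acute-phase gene was called in this comparison, beside 0.186% of all genes, and none was called by edgeR or DESeq2. At an unadjusted p under 0.05 (limma-voom) there were 7 of 9, beside 3533 of 17743 genes tested. Of the 7, Socs3 (-0.779) and Cebpd (-0.659) were lower on the late days.

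Lcn2 was the gene on the list that passed with both measures in both cell types for its correlation with Serpina3n. Across the 28 mTEC samples, log2(FPKM + 0.5) of the genes correlated at Pearson r = 0.758 (permutation p = 1e-05, the smallest that 100000 permutations can give, adjusted p = 0.00016 over 16 relations) and Spearman rho = 0.750 (permutation p = 2e-05, adjusted p = 0.00032). Without the 2 samples farthest from the median of Serpina3n, r was 0.669. In cTECs, over 22 samples and leaving out D-2 and D6 because they chose the list, r was 0.686 (permutation p = 0.00054, adjusted p = 0.00432) and rho 0.632 (permutation p = 0.00201, adjusted p = 0.0126), and r without the 2 farthest samples was 0.692.

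In mTECs, Hp and C3 gave rho = 0.556 (permutation p = 0.00236, adjusted p = 0.0126) and rho = 0.491 (permutation p = 0.00874, adjusted p = 0.0350) with Serpina3n. Their Pearson r of 0.450 (permutation p = 0.0169) and 0.394 (permutation p = 0.0381) did not pass after adjustment (adjusted p = 0.0902 and 0.122), and without the 2 farthest samples r was 0.352 and 0.250. Stat3, Socs3 and Cebpd, the signalling genes, gave r between -0.141 and 0.283 over 6 relations, with an adjusted permutation p of at least 0.359.

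Neutrophils also carry Lcn2, and their markers were measured beside it. The summed level of 14 neutrophil markers ranged from 80.4 to 131 FPKM in cTECs of D-2 and from 63.1 to 73.7 FPKM on D6. Of these markers in cTECs, Elane was at 0 in all samples of D-2 and D6, and Ly6g had a mean of 1.92 FPKM at D-2 and was at 0 in all 3 samples of D6. S100a8 had a mean of 2.35 FPKM at D-2 and 0.250 FPKM on D6. In mTECs the sum was 275 to 315 FPKM at D-2, 341 to 511 FPKM in NPC and 174 to 327 FPKM on D6. S100a8 there was at 69.4 FPKM at D-2 and 78.1 FPKM in NPC. Their part in the level of Lcn2 was not tested.

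Saa3, a serum amyloid A protein made outside the liver, was sparse and spread widely. In cTECs it was at 13.5, 22.1 and 9.86 FPKM at D-2 and at 0.390, 0 and 0.440 FPKM on D6, below all samples of D-2. NPC ran from 0 to 19.4 FPKM and D3 from 1.42 to 48.1 FPKM. On D16, D20, D24 and D28 the level was 34.3, 36.5, 34.0 and 19.4 FPKM, all above the early median of 9.98 FPKM. The late against early difference of 2.24 (SE 0.613) on the log2 scale missed the threshold (limma-voom, adjusted p = 0.0161). In mTECs Saa3 was higher, at 114, 28.5 and 70.0 FPKM in NPC, 25.5, 32.6 and 38.6 FPKM at D-2 and 35.6, 3.18 and 14.9 FPKM on D6. Its log2 fold change between D-2 and NPC there was -0.507 (SE 0.585, limma-voom, adjusted p = 0.706). It was at 86.9, 64.2 and 85.2 FPKM on D12 and at 185 FPKM on D16.

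Hp, haptoglobin, which binds free hemoglobin, stayed low. In cTECs it was at 5.32, 12.2 and 8.01 FPKM at D-2 and at 1.23, 1.17 and 1.81 FPKM on D6, without overlap, and NPC, at 0.720, 5.01 and 2.59 FPKM, lay below D-2 and overlapped D6. In mTECs it was at 11.6, 0 and 6.90 FPKM in NPC and 12.1, 4.33 and 10.3 FPKM at D-2. The fitted log2 fold change of 3.59 (SE 1.5) rested on the sample listed at 0, was not called (limma-voom, adjusted p = 0.234) and was -0.06 without it.

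C3 and Cfb encode parts of the alternative pathway of complement, the central component and the factor B that joins it in the convertase. C3 was the most abundant gene on the list in both cell types, with a median of 519 FPKM in cTECs and 729 FPKM in mTECs. In cTECs it was at 620, 695 and 802 FPKM at D-2 and at 313, 374 and 255 FPKM on D6, without overlap, a fitted change of -1.28 (SE 0.205) from the contrast behind the list. NPC, at 599, 346 and 500 FPKM, lay below D-2 and overlapped D6. On D16 to D28 the level was 538, 876, 862 and 782 FPKM, all above the early median of 404 FPKM, but the difference of 0.474 (SE 0.174) on the log2 scale did not pass (limma-voom, adjusted p = 0.0652) and turned to -0.18 when no filter on low genes was used. In mTECs C3 stood at 573, 651 and 881 FPKM at D-2 and 550, 520 and 725 FPKM on D6, and the groups overlapped.

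Cfb was low in cTECs. There it was at 7.25, 0 and 1.13 FPKM in NPC, 0.450, 1.5 and 2.27 FPKM at D-2 and 1.32, 1.37 and 0.450 FPKM on D6, with overlap throughout. In mTECs its median over 28 samples was 9.02 FPKM against 2.29 FPKM in cTECs. On the late days in cTECs it stood at 3.71, 3.10, 7.05 and 6.22 FPKM, all above the early median of 2.38 FPKM, and the difference of 1.64 (SE 0.503) on the log2 scale missed the threshold (limma-voom, adjusted p = 0.0300).

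**Figure D2:**
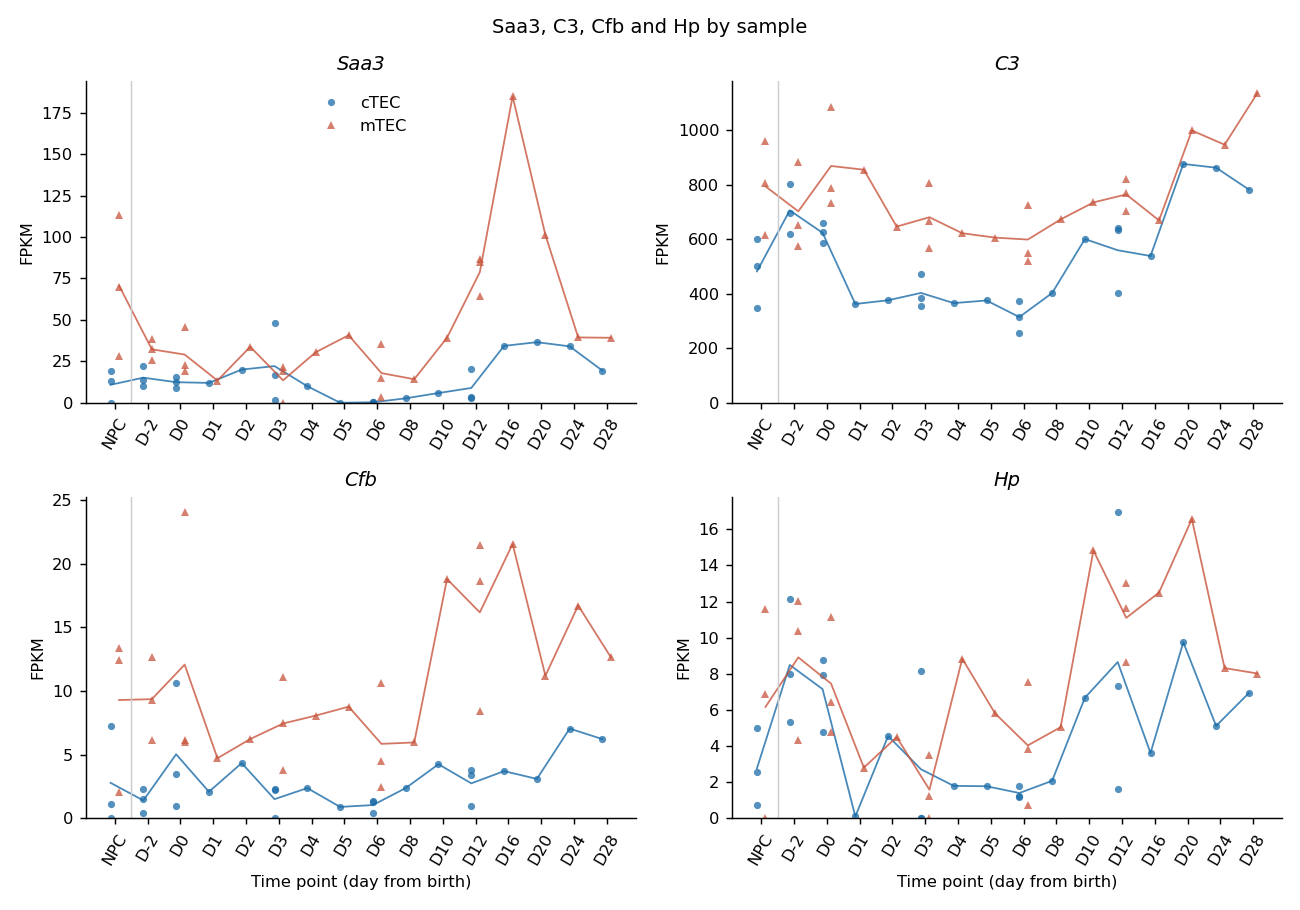
FPKM of Saa3, C3, Cfb and Hp by time point on linear axes from 0, with 1 point per sample, circles for cTECs and triangles for mTECs, and lines through the mean of each time point. In cTECs C3 is at 255 to 374 FPKM on D6 and 538 to 876 FPKM on the late days, and Cfb lies higher in mTECs.

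No acute-phase gene was called between late and early cTECs by limma-voom, edgeR or DESeq2, beside 1.78% of all genes with limma-voom. An unadjusted p under 0.05 (limma-voom) was reached by 5 of 9, all with a positive sign, beside 4689 of 15845 genes tested. Other complement genes did pass. C2, which acts in the classical pathway, rose by 1.62 on the log2 scale (SE 0.378, adjusted p = 0.00626), and Serping1, the C1 inhibitor, rose by 1.42 (SE 0.321, adjusted p = 0.00495), 2 of 15 genes tested on the complement list. From the JAK-STAT lists, Stat2, a transcription factor of interferon signaling, rose by 1.04 (SE 0.242, adjusted p = 0.00598) and Socs1, an inhibitor of JAKs, fell by 1.10 (SE 0.254, adjusted p = 0.00592). All 4 adjusted p are from limma-voom. Without the D28 sample each of the 4 missed the threshold (adjusted p = 0.0219 for C2, 0.0172 for Serping1, 0.0455 for Stat2 and 0.0119 for Socs1). Without D20, C2, Serping1 and Socs1 missed it (adjusted p = 0.0144, 0.0219 and 0.0467), without D16 Stat2 did (adjusted p = 0.0140), and without D24 Socs1 did (adjusted p = 0.0101). Genes of other lists were called too. Among them, Cxcl5 of the NF-kB response genes and Mx1 and Ifit3 of the interferon response genes were higher, and the TEC marker Foxn1 was lower. Their calls were also lost without D28, with log2 fold changes of 4.53, 1.52, 0.97 and -0.88. The summed level of 10 fibroblast markers was 343 to 707 FPKM on the late days, 103 to 392 FPKM in the samples of D0, D3, D6 and D12 and 405 to 542 FPKM in NPC, and 2 of its 7 genes tested were called higher. Of 9 mTEC markers tested in these cTEC samples, Aire (1.96, SE 0.447, limma-voom, adjusted p = 0.00545) and Cd80 (3.03, SE 0.707, limma-voom, adjusted p = 0.00618) were called higher as well, with a median log2 fold change of 0.667 over the list, and their summed level was 4460 to 7310 FPKM on the late days, within the 3670 to 7970 FPKM of the samples of D0, D3, D6 and D12. Serping1 itself was lower in cTECs than in mTECs, at -2.06 (SE 0.348, limma-voom, adjusted p = 2.35e-05). Without D28 the calls of Aire and Cd80 were lost too (limma-voom, adjusted p = 0.0302 and 0.0138). So were those of the fibroblast markers Dcn and Lum (limma-voom, adjusted p = 0.0263 and 0.0295). Cd80 and Dcn also missed the threshold without D20 (limma-voom, adjusted p = 0.0171 and 0.0129). The part of fibroblasts and mTECs in the late against early changes was not tested.

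Lrg1, a secreted glycoprotein induced by interleukin-6 in liver, was close to absent. It was listed at 0 in 21 of 28 cTEC samples and 13 of 28 mTEC samples, and its highest levels were 0.980 FPKM in cTECs and 2.04 FPKM in mTECs. The latter was a sample of D-2, where the 3 mTEC samples gave 0.550, 2.04 and 1.05 FPKM, against 0, 0 and 0.510 FPKM in NPC.

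Stat3 is the transcription factor itself. In cTECs it was at 60.7, 69.0 and 77.9 FPKM in NPC, 52.9, 67.1 and 78.2 FPKM at D-2 and 62.9, 77.8 and 97.7 FPKM on D6, with overlap throughout. In mTECs it was at 111, 176 and 110 FPKM at D-2 and 108, 98.5 and 97.3 FPKM on D6, just below D-2 in FPKM, and the fitted change of 0.04 on the log2 scale (SE 0.164) was not called (limma-voom, adjusted p = 0.997). RNA levels say nothing of the phosphorylation of the protein, which was not measured here.

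Socs3, the feedback inhibitor of gp130 receptors, was among the abundant genes, with a median of 472 FPKM in cTECs and 392 FPKM in mTECs. In cTECs it was at 597, 516 and 561 FPKM at D-2, close to the 375, 472 and 742 FPKM of NPC. On D6, replicates 1 and 2 stood at 201 and 191 FPKM and replicate 3 at 687 FPKM, so D6 spanned the range of D-2. On D12 it was at 217, 139 and 218 FPKM, below the 607, 619 and 623 FPKM of D0. Cebpd, a C/EBP factor induced early in the acute phase, followed the same samples, with 4.90, 5.86 and 23.7 FPKM on D6 in cTECs and 6.55, 3.84 and 8.63 FPKM on D12 against 20.4, 19.1 and 18.9 FPKM on D0.

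From D0 to D12 in cTECs, 5 of 9 acute-phase genes were lower without overlap, beside 13.5% of all genes, and the median log2 fold change of the 9 was -1.24, against 0.0327 over all genes. Markers of cell types moved in the same fit. Of 10 cTEC markers, 7 were called higher on D12, with a median of 1.90 and a summed level of 13300 to 14300 FPKM, against 3320 to 4320 FPKM on D0. Of 20 thymocyte markers, 4 (Lck, Dntt, Cd8a and Rag1) were called higher, with a median of 2.73. The summed level of that list was 158 to 201 FPKM, against 41.3 to 58.4 FPKM on D0. Without D0 replicate 3 these 4 calls were lost (limma-voom, adjusted p = 0.084, 0.0649, 0.0608 and 0.0343). So were those of the cTEC markers Psmb11 and Ctsl (limma-voom, adjusted p = 0.0478 and 0.0134). The calls of Lck, Dntt and Psmb11 were lost whichever sample of D0 or D12 was left out. The part of these markers in the levels of the acute-phase genes was not tested. None of the 9 was called by limma-voom or edgeR, beside 0.732% of all genes, and DESeq2 called 1. An unadjusted p under 0.05 (limma-voom) was reached by 4 of the 9, beside 2421 of 15845 genes tested. These were Socs3 (-1.64, SE 0.344, limma-voom, adjusted p = 0.0128), Cebpd (-1.39, SE 0.339, adjusted p = 0.0306), Lcn2 (-1.31, SE 0.325, adjusted p = 0.0329) and Serpina3n (-1.24, SE 0.324, adjusted p = 0.0441). Over 9 alternatives Socs3 was called in 5, with an adjusted p from 2.09e-05 to 0.0880. In mTECs Socs3 was at 618, 403 and 492 FPKM on D0 and at 298, 105 and 203 FPKM on D12, without overlap, and its change of -1.56 (SE 0.407) was not called (limma-voom, adjusted p = 0.106). None of the 9 was called in that comparison (0.0% of all genes called), in the difference between the cell types over the same days (0.0584% of all genes called), or in cTECs between D0 and NPC (0.0% of all genes called) and between D3 and D0 (0.0252% of all genes called), by limma-voom, edgeR or DESeq2. At an unadjusted p under 0.05 (limma-voom) there were 2 of 9 genes in mTECs between D12 and D0, beside 2436 of 17743 genes tested. In the difference between cell types there were 0, beside 1428 of 17136. In cTECs there were 2 between D0 and NPC, beside 1284 of 15845 (Serpina3n at 1.76, SE 0.416, and Lcn2 at 2.73, SE 0.870). Between D3 and D0 there were 4, beside 3471 of 15845.

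The levels of Socs3 and Cebpd ran parallel to those of immediate-early genes. The summed level of 16 immediate-early genes, such as Fos, Jun and Egr1, which rise within minutes in cells handled for sorting, ranged from 3170 to 19300 FPKM in cTECs and from 2520 to 17200 FPKM in mTECs. On D6 in cTECs it was 4390 to 4420 FPKM in replicates 1 and 2 and 16200 FPKM in replicate 3, the same sample in which Socs3 and Cebpd were high. On D12 it was 3170 to 5060 FPKM in cTECs, against 11600 to 14100 FPKM on D0. The comparison was added after the levels had been seen. Over 28 samples each, log2 levels of Socs3 correlated with the sum at r = 0.954 in cTECs and 0.965 in mTECs. Those of Cebpd correlated at r = 0.914 and 0.834. The cTEC samples include those of D-2 and D6, which chose the list, so the values in cTECs are a description. In mTECs the permutation p was 1e-05 for each gene, the smallest possible (adjusted p = 4.5e-05 over 18 relations). Spearman rho was 0.923 and 0.960 for Socs3 and 0.885 and 0.833 for Cebpd (in mTECs, permutation p = 1e-05 for each, adjusted p = 4.5e-05). Without the 2 samples farthest from the median of the sum, r was 0.938 and 0.967 for Socs3 and 0.893 and 0.796 for Cebpd. For the 7 other genes, Serpina3n among them, r lay between -0.362 and 0.315 over both cell types, given as a description. The part of cell handling in the levels of Socs3 and Cebpd was not tested.

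**Figure D3:**
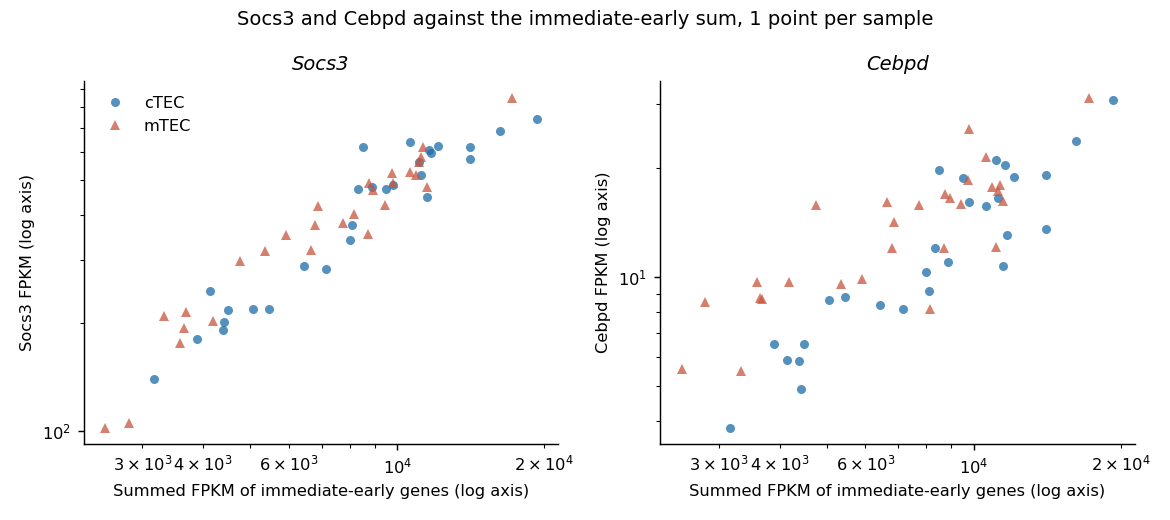
FPKM of Socs3 (left) and Cebpd (right) against the summed FPKM of 16 immediate-early genes, both on log axes, with 1 point per sample, circles for cTECs and triangles for mTECs. The points lie along a rising line in both cell types, with r of 0.954 and 0.965 for Socs3.

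Genes upstream of STAT3 were examined from lists of 12 ligands and 12 receptors. Of the ligands, 5 passed the filter in cTECs and 6 in mTECs, and none was called within either cell type. In cTECs of D-2, Il6 had a mean of 0.543 FPKM, and Osm and Lep were listed at 0. Ctf1, cardiotrophin-1, was at 35.1 FPKM in cTECs of D-2 and 44.8 FPKM on D6. The receptor subunit Il6st was at 138 ± 30.3 FPKM in cTECs of D-2, 92.9 ± 16.5 in NPC and 93.6 ± 11.6 on D6 (SD, n = 3). Il6ra, the chain that binds interleukin-6, had means of 6.52 FPKM in NPC, 11.1 at D-2 and 3.07 on D6 in cTECs. Between D0 and D12 in cTECs its log2 fold change of -0.935 (SE 0.175, limma-voom, adjusted p = 0.00623) passed the adjusted p but not the fold change.

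In mTECs, Il6ra had a mean of 5.67 ± 2.86 FPKM in NPC and 16.7 ± 2.44 at D-2, and the groups did not overlap. It rose by 1.70 on the log2 scale (SE 0.328, limma-voom, adjusted p = 0.00932), 1 of 9 receptors tested. The call was lost without D-2 replicate 1, 2 or 3 (adjusted p = 0.0283, 0.0142 and 0.0955) and without NPC replicate 2 (adjusted p = 0.105). Socs2, which restrains growth hormone and prolactin signals, rose from 42.9 ± 14.8 to 104 ± 19.6 FPKM, a change of 1.54 (SE 0.266, limma-voom, adjusted p = 0.00457), 1 of 15 inhibitors tested. Its call was lost without D-2 replicate 1 or 2 (adjusted p = 0.0251 and 0.0161) and without NPC replicate 2 (adjusted p = 0.0524). Klf9, a gene that responds to glucocorticoids and progesterone, rose from 39.5 ± 5.66 to 132 ± 36.8 FPKM, by 1.69 (SE 0.232, limma-voom, adjusted p = 0.00172), 1 of 15 on its list, and its call was lost without NPC replicate 2 (adjusted p = 0.0166). Spink5, from the list of mTEC markers, was also called higher by limma-voom. Its call was lost without D-2 replicate 1, 2 or 3 (limma-voom, adjusted p = 0.0102, 0.0153 and 0.0257). Leaving out NPC replicate 2 removed it as well (limma-voom, adjusted p = 0.0397). The part of the make-up of the sorted cells in these changes was not tested. No gene of the lists of 11 JAK and STAT proteins, 19 other STAT3 targets, 26 other acute-phase proteins, 23 other complement genes, 20 NF-kB response genes and 7 C/EBP genes was called there; their median log2 fold changes ran from -0.0549 to 0.347, against 0.125 over all genes tested. The median of the 9 acute-phase genes on the list was 0.885. Hp (3.59) and Cfb (1.54) lay above it, but were at -0.06 and -0.73 without NPC replicate 2. The median thus rests in part on that sample, and no rise of the genes as a set is read from it.

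No gene of these lists was called in mTECs between D6 and D-2. The 22 other acute-phase proteins that passed the filter had a median log2 fold change of -1.53 there, against -0.0273 over all genes, and the 18 other STAT3 targets one of -0.173. In the same mTEC samples the macrophage and dendritic marker sum was 81.1 to 122 FPKM at D-2 and 26.0 to 74.4 FPKM on D6, the adipocyte sum was 57.3 to 91.8 FPKM and 7.34 to 42.9 FPKM, and the sum of 10 cTEC markers was 1040 to 1950 FPKM and 3540 to 6580 FPKM; their part in these values was not tested.

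At D-2 in cTECs, 4 of 9 acute-phase genes lay above NPC without overlap, beside 6.54% of all genes, and on D6 5 of 9 lay below D-2, beside 12.3% of all genes; these contrasts chose the list, and nothing is read from the counts. In the fit of D6 against D-2, 2 of 9 (Serpina3n and C3) lay past the thresholds as lower, beside 0.808% of all genes. Serpina3n was selected on this fall, so the count is a description and not a test. No enrichment is read from it. Over the same samples the summed level of 10 cTEC markers was 7050 to 10000 FPKM in NPC, 1790 to 3230 FPKM at D-2 and 14300 to 15900 FPKM on D6, and that of 20 thymocyte markers was 48.8 to 235 FPKM, 37.9 to 47.5 FPKM and 102 to 124 FPKM. Serpina3n was thus highest where the cTEC marker sum was lowest, and the part of these markers in its level was not tested.

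Between the cell types, the comparison over NPC, D0, D3 and D12 called 13.9% of 17136 genes, and 2 of the 9, Cfb and Lcn2, both lower in cTECs, beside 9.27% of all genes called lower. The log2 fold change of Cfb was -2.94 (SE 0.711, limma-voom, adjusted p = 0.00167), and the call was lost without cTEC D3 replicate 2 (adjusted p = 0.0116). That of Lcn2 was -1.09 (SE 0.284, limma-voom, adjusted p = 0.00339), with values from -1.06 to -0.75 under the alternatives, 2 of 9 of which called it, and the call was lost without cTEC D12 replicate 1, cTEC NPC replicate 2 or mTEC NPC replicate 2 (log2 fold changes of -0.87, -0.77 and -0.97). Stat3 was lower in cTECs by a smaller step, -0.74 (SE 0.0759, limma-voom, adjusted p = 5.92e-09), and so was C3, at -0.62 (SE 0.105, limma-voom, adjusted p = 2.59e-05); neither reached a fold change of 2. Saa3 was at -2.05 (SE 0.782, limma-voom, adjusted p = 0.0426).

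Of 19 other acute-phase genes tested, 9 were called lower and none higher, with a median log2 fold change of -2.29, against 0.0203 over all genes. They included Itih3 (-5.26, SE 0.706, limma-voom, adjusted p = 7.48e-07), Crp (-5.34, SE 0.626, limma-voom, adjusted p = 7.06e-08), Saa2 (-5.19, limma-voom, adjusted p = 1.09e-06) and Saa1 (-2.76, limma-voom, adjusted p = 0.000812), all liver products in the plasma. On the signaling lists, Socs2 (-2.52, limma-voom, adjusted p = 7.47e-06) and Stat5a (-2.19, limma-voom, adjusted p = 8.16e-11) were lower in cTECs. Of 9 neutrophil markers tested, 7 were lower in cTECs too, S100a8 among them at -5.31, and 3 of 4 adipocyte markers were, and their part in these differences was not tested.

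**Figure D4:**
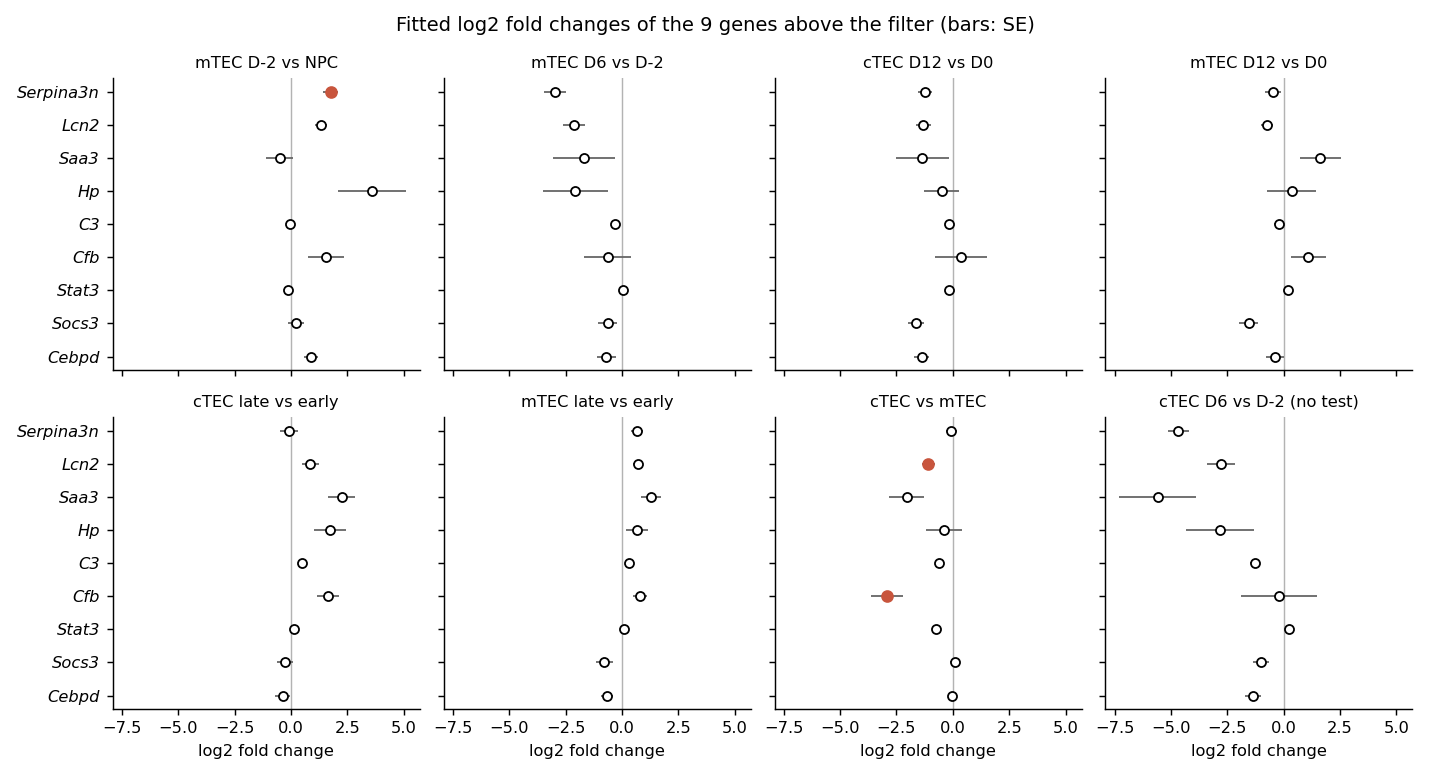
Fitted log2 fold changes of the 9 genes above the filter, as points with bars for the SE, in 7 tested comparisons and in cTECs between D6 and D-2, which is shown without a test because it chose the list. Filled points passed a fold change of 2 and an adjusted p of 0.01 (limma-voom): Serpina3n in mTECs between D-2 and NPC, and Cfb and Lcn2 between cTECs and mTECs.

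The genes whose levels were most like those of Serpina3n across the 28 cTEC samples were found by Pearson r of log2(FPKM + 0.5), as a description over 10067 genes with a mean of at least 5 FPKM in samples that include those of the choice. Gpx3, an extracellular glutathione peroxidase, came first at r = 0.934, with means of 217 FPKM in NPC, 937 at D-2, 626 on D0, 118 on D6 and 243 on D12. App followed at r = 0.849, Cdo1, which oxidizes cysteine, at 0.840, Tmem176a at 0.840 and Igfbp5, which binds insulin-like growth factors, at 0.834. Igfbp5 went from 707 FPKM in NPC to 2310 at D-2 and 551 on D6. In the 28 mTEC samples r with Serpina3n was 0.770 for Gpx3 and 0.653 for Cdo1, but 0.411 for App, 0.345 for Tmem176a and 0.0558 for Igfbp5. On the acute-phase list, Lcn2 ranked 23 (r = 0.753), C3 76 (r = 0.659), Saa3 452 (r = 0.460), Cebpd 856, Socs3 992 and Stat3 8071 (r = -0.263).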

How the data were processed

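Reads had been trimmed with Trimmomatic 0.35, aligned to GRCm38 with STAR 2.5.1b and quantified with RSEM 1.2.28, per the labels and the study's methods. The deposited files hold, for 50600 Ensembl genes in each of 56 samples, the authors' expected counts (RSEM estimates, 91.4 to 98.0% of them whole within 0.005), TPM and FPKM values. Symbols came from GENCODE M21 and matched 50376 identifiers. The 10 genes and all other lists were chosen with earlier results of these data known.

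Expected counts were rounded and fitted with limma-voom (limma 3.58.1, R 4.3.3) after TMM scaling, with 1 mean per time point over the 28 samples of a cell type, or over all 56 samples to compare cell types. Late samples (D16 to D28, n = 4) were set against early ones (D0 to D12, n = 18 in mTECs and 15 in cTECs, where D6 was kept apart). Genes with a mean of at least 0.5 FPKM were tested: 15845 in cTECs, 17743 in mTECs and 17136 jointly. A call needed a 2-fold change and a Benjamini-Hochberg adjusted p of 0.01 or lower. Correlations used log2(FPKM + 0.5) and two-sided permutation tests with 100000 permutations. In cTECs, contrasts with D-2 or D6 were not used as tests, because they chose the list. Fitted values and counts past the thresholds are given there as a description. Alternatives were edgeR 4.0.16 (quasi-likelihood), DESeq2 1.42.0, library totals without TMM, no filter, limma-trend on log2 FPKM with pseudocounts of 0.5 and 0.1, sample quality weights, only the groups compared, a replicate block, an adjusted p of 0.05, and leaving out each replicate. The scripts were tested on simulated data. TPM served only as an alternative unit for correlations and ratios. Genes named beyond the 10 were those called on a list, at most 4 per list and comparison, the Serpina3 family and the 5 genes most like Serpina3n; ligands, receptors and markers named with a level alone were chosen for their role.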

Additional observations from a re-analysis of the deposited data

Results flagged for a closer look

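In cTECs of the late days (D16 to D28, 4 samples), Serpina3n stood at 77.3 FPKM on D24, against 17.4 to 22.7 FPKM in the other 3 samples, a gap beyond Dixon's critical value of 0.829 for 4 samples. In the same 4 samples Saa3 stood at 19.4 FPKM on D28, against 34.0 to 36.5 FPKM in the others, past the same value on the low side. The screen covered the late samples of all 10 genes in both cell types, on the high and the low side. The test flags about 1 in 20 groups by chance, and each of these days has 1 sample. Nothing further is read from the flags.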

How the results depend on the processing

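The number of the 9 acute-phase genes called moved with the method. In cTECs between D12 and D0, where limma-voom called 0, there were 4 at an adjusted p of 0.05, 1 with DESeq2, 1 without a filter, 3 with quality weights, 2 with only the groups compared and 1 with a replicate block. Between late and early cTECs the count went from 0 to 2 at an adjusted p of 0.05 and to 2 with quality weights. In mTECs between D-2 and NPC it went from 1 to 2 at an adjusted p of 0.05, with DESeq2 and without a filter, and to 0 with edgeR, both limma-trend fits, quality weights, only the groups compared and the replicate block; leaving out 1 replicate gave 0 to 2. In mTECs between D6 and D-2 it went from 0 to 1 at an adjusted p of 0.05, with edgeR, both limma-trend fits, only the groups compared and the replicate block, to 2 with DESeq2 and to 3 with quality weights. Between the cell types it went from 2 to 1 with edgeR, both limma-trend fits, quality weights and the replicate block, and to 0 with only the groups compared; leaving out 1 replicate gave 1 to 3. The cause of these moves was not tested.

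Signs turned in 11 settings, each for a gene that was not called. In cTECs between D0 and NPC, Saa3 was at -0.47 and Cfb at -0.10 without NPC replicate 2, with ranges over left-out replicates of -0.47 to 3.45 and -0.10 to 3.61. Between D3 and D0, Stat3 was at 0.28 in both limma-trend fits and Cfb at 0.26 with quality weights and 0.61 without D3 replicate 2 (range -2.79 to 0.61). Between late and early cTECs, C3 was at -0.18 without a filter. In mTECs between D-2 and NPC, Hp was at -0.06 without NPC replicate 2 (range -0.06 to 5.06), and Cfb at -0.05 with edgeR, -0.02 with DESeq2 and -0.73 without NPC replicate 2 (range -0.73 to 2.60). Correlations of the acute-phase genes with the immediate-early sum in mTECs, computed after seeing the data, passed for 2 genes, and for 4 with 1 value per time point.

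Counts over all genes moved further: 2 to 1120 in late against early cTECs (282 with limma-voom), 10 to 270 in cTECs between D12 and D0 (116), and 0 to 306 in mTECs between D-2 and NPC (101). DESeq2 scaling shifted the median of all genes by -0.13 in that last comparison, by -0.12 between cell types and by 0.16 in cTECs between D3 and D0, where it was -0.252. Samples with the same replicate number at different time points correlated at -0.132 to 0.4 in cTECs and -0.109 to 0.337 in mTECs, as deviations from group means. Between the cell types, 16 pairs with the same time point and title number correlated at -0.168 to 0.107. The labels do not say whether such pairs shared a mouse. The replicate block went by replicate number within a cell type and by title number between cell types, and served as an alternative only. Low counts limit Lrg1, Hp, Cfb and Saa3, which were listed at 0 in some samples.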
